A study of Mus musculus with 9 samples.

Results

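The nuclear genes of the mitochondrial respiratory chain were followed through β-catenin-driven transformation of mouse thymocytes. Members were the genes whose symbols begin with Nduf followed by a, b, c, s or v, with Uqcr, with Cox4 to Cox8 or with Atp5, together with Sdha, Sdhb, Sdhc and Sdhd. Of 18193 genes named by a single symbol on the array, 90 were members, and 85 of these were bright enough to be tested among 11644 genes. Grouped by symbol, the tested members were 6 core and 28 accessory subunits of complex I and 8 complex I assembly factors that share the Ndufa prefix. The others were 4 subunits of complex II, 8 of complex III, 14 of complex IV and 17 of complex V. Because symbols set the groups, Ndufa4, whose protein is now placed in complex IV, counts among the accessory subunits of complex I. Each gene was read by its brightest probe set. The members left out as too dim were Cox4i2, Cox7b2, Cox8b, Ndufa4l2 and Ndufb4.

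The respiratory chain sits in the inner mitochondrial membrane. Complexes I and II pass electrons from NADH and succinate to ubiquinone, complex III passes them to cytochrome c, and complex IV passes them to oxygen. Complexes I, III and IV pump protons as they do so, and complex V, the ATP synthase, makes ATP as the protons flow back. Mitochondrial DNA encodes a small set of core subunits, and all other subunits, the members described here among them, are encoded in the nucleus and imported.

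All 9 arrays held RNA of C57Bl/6 mice, 1 mouse each, that carried R26NC/NC, an allele for active β-catenin switched on by Cre. Controls were 2 R26NC/NC CD4Cre- mice aged 6 weeks, in which the allele had not been switched on. The pre-transformed group was 3 R26NC/NC CD4Cre+ mice of the same age, in which the Cd4 promoter drives Cre in thymocytes that turn CD4+CD8+, or double-positive (DP). Both were read as sorted DP thymocytes of over 98% purity. The tumours came from 4 R26NC/NC CD4Cre+ mice aged 28, 26, 23 and 21 weeks (tumours 1 to 4), as unsorted thymic tumour with at least 95% DP cells. The MessageAmp Premier kit amplified 0.1 µg of RNA from sorted cells, whereas 2.5 µg from tumours went through the standard Affymetrix labelling, so tumour state, age, sorting and labelling cannot be told apart. Precision is limited by having 2 to 4 arrays a group, and lower signal from fewer cells of a type or from less RNA per cell cannot be told apart in bulk RNA.

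Array medians were 9.9 to 10.6 in controls, 10.8 to 11.8 in pre-transformed cells and 10.7 to 15.2 in tumours. A group mean under the 65th percentile of its arrays, which was 39.4 to 44.6 in sorted cells and 28.5 to 40.5 in tumours, is called dim here. The log2 ratio of 3′ to 5′ β-actin signal was 0.20 to 0.35 in sorted cells and 0.54 to 1.14 in tumours. Of 8 DP markers tested, 7 were lower in tumours than in pre-transformed cells, with a median log2 change of -1.90, and the other was Cd4. Summed signal of 10 myeloid markers was 114 to 132 in controls, 121 to 221 in pre-transformed cells and 149 to 3179 in tumours. Tumour 2 held the lowest myeloid and B cell signal of the tumours, with 3.1 for Lyz2 and 0.5 for Cd79a. These lists are set beside the members again below.

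Before transformation, respiratory chain genes were on balance slightly lower in β-catenin-active DP cells than in controls, but none passed the test. No member was called in either direction of 85, where limma called 1.11% of all genes tested as higher and 0.524% as lower at an adjusted p under 0.05. At an unadjusted p under 0.05, 26 members were lower and 0 higher, against 916 lower and 1130 higher among all genes tested. Among the members, 78 of 85 changes were below 0, with a median log2 change of -0.23 against 0.02 over all genes tested. The pre-transformed arrays all read below both control arrays for 38 members (44.7%) and all above for 1 member, Ndufaf3, where such separation was seen in 15.6% and 20.6% of all genes tested. The shift rested on which control it was read against, since the median was -0.10 without control 2 and -0.35 without control 1. Leaving out pre-transformed 2 called 3 members lower.

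The members nearest to a call before transformation were Ndufb2 and Sdhd. Ndufb2 is named for its values. Ndufb2 (probe set 1448483_a_at), an accessory subunit of the complex I membrane arm, read 451.5 and 516.0 in controls and 324.7, 351.6 and 324.2 in pre-transformed cells. Sdhd (probe set 1428235_at), a membrane anchor of complex II, read 589.3 and 689.5 in controls and 425.1, 352.8 and 453.8 in pre-transformed cells. The groups did not overlap for either gene. Log2 changes were -0.53 for Ndufb2 (adjusted p = 0.0606) and -0.64 for Sdhd (adjusted p = 0.0644). Sdhd passed the threshold when arrays were centred on their medians (-0.77, adjusted p = 0.0459) and with array weights (-0.59, adjusted p = 0.0383). Ndufb2 did so too with median centring (-0.67, adjusted p = 0.0497) and array weights (-0.55, adjusted p = 0.0301). Leaving out pre-transformed 2 also let Ndufb2 pass (-0.57, adjusted p = 0.0439). Without suffixed probe sets Ndufb2 was at 0.12, but was then read by 1442658_at, which was dim in all groups. The other suffixed probe set, 1416834_x_at, was at -0.57 and not called (adjusted p = 0.0793 over all probe sets kept). By complex, the median change before transformation lay between -0.30 for complex II and -0.16 for the assembly factors. All 28 accessory subunits and all 6 core subunits of complex I had changes below 0.

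In tumours more respiratory chain genes rose than fell against pre-transformed cells under each of 4 scalings, while against controls median centring left 7 members higher and 8 lower. Under the deposited scaling, against pre-transformed cells, 56 of 85 members (65.9%) rose and 5 (5.88%) fell, where 23.9% of all genes tested were called higher and 31% lower. The median log2 change of the members was 0.59 against -0.12 over all genes tested. Of the 56 rises, 17 were at least 1 on the log2 scale. Against controls, 36 members (42.4%) rose and 5 fell, where 20.5% of all genes tested were called higher and 25.2% lower, and the median change was 0.35 against -0.08. Both comparisons share the tumour arrays. All 36 members called higher against controls were also called higher against pre-transformed cells, and 20 more were called higher against pre-transformed cells only. Whether the 2 comparisons differ for those 20 was not tested.

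How many members rose depended on how arrays were scaled. The deposited scaling left the median of all genes tested at -0.12 for tumours against pre-transformed cells, and centring each array on the median of its probe sets moved it to -0.38. Array medians, at 9.9 to 15.2, lie in the dim range, so that this centring sets arrays equal on dim probe sets. Under that centring 29 members rose and 6 fell against pre-transformed cells, and 7 rose and 8 fell against controls. Member medians were then 0.33 and -0.04, where all genes tested were at -0.38 and -0.46. Quantile normalization gave 40 higher and 9 lower against pre-transformed cells, and 24 higher and 8 lower against controls. Its member medians were 0.34 and 0.12, against -0.09 and -0.08 over all genes tested. Centring on the genes tested gave 67 higher and 3 lower, and 52 higher and 4 lower. Member medians were 0.88 and 0.63 there, against 0.17 and 0.21 over all genes tested. The share of all genes called is given here for the deposited scaling only. Under all 4 scalings, 29 members were called higher and 3 lower against pre-transformed cells. Against controls 7 were called higher under all 4, which were Atp5a1, Atp5g1, Atp5g2, Ndufa12, Ndufaf4, Ndufaf6 and Ndufb1, and 4 were called lower, which were Cox6b2, Cox7c, Ndufaf3 and Ndufv3. Against controls the median of complex V was 0.32 as deposited, -0.04 with quantile normalization and -0.07 with median centring. The median of all genes tested was -0.08, -0.08 and -0.46 there. The comparison with controls also rested on control 1: without it, 11 members were called higher and 4 lower.

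**Figure D1:**
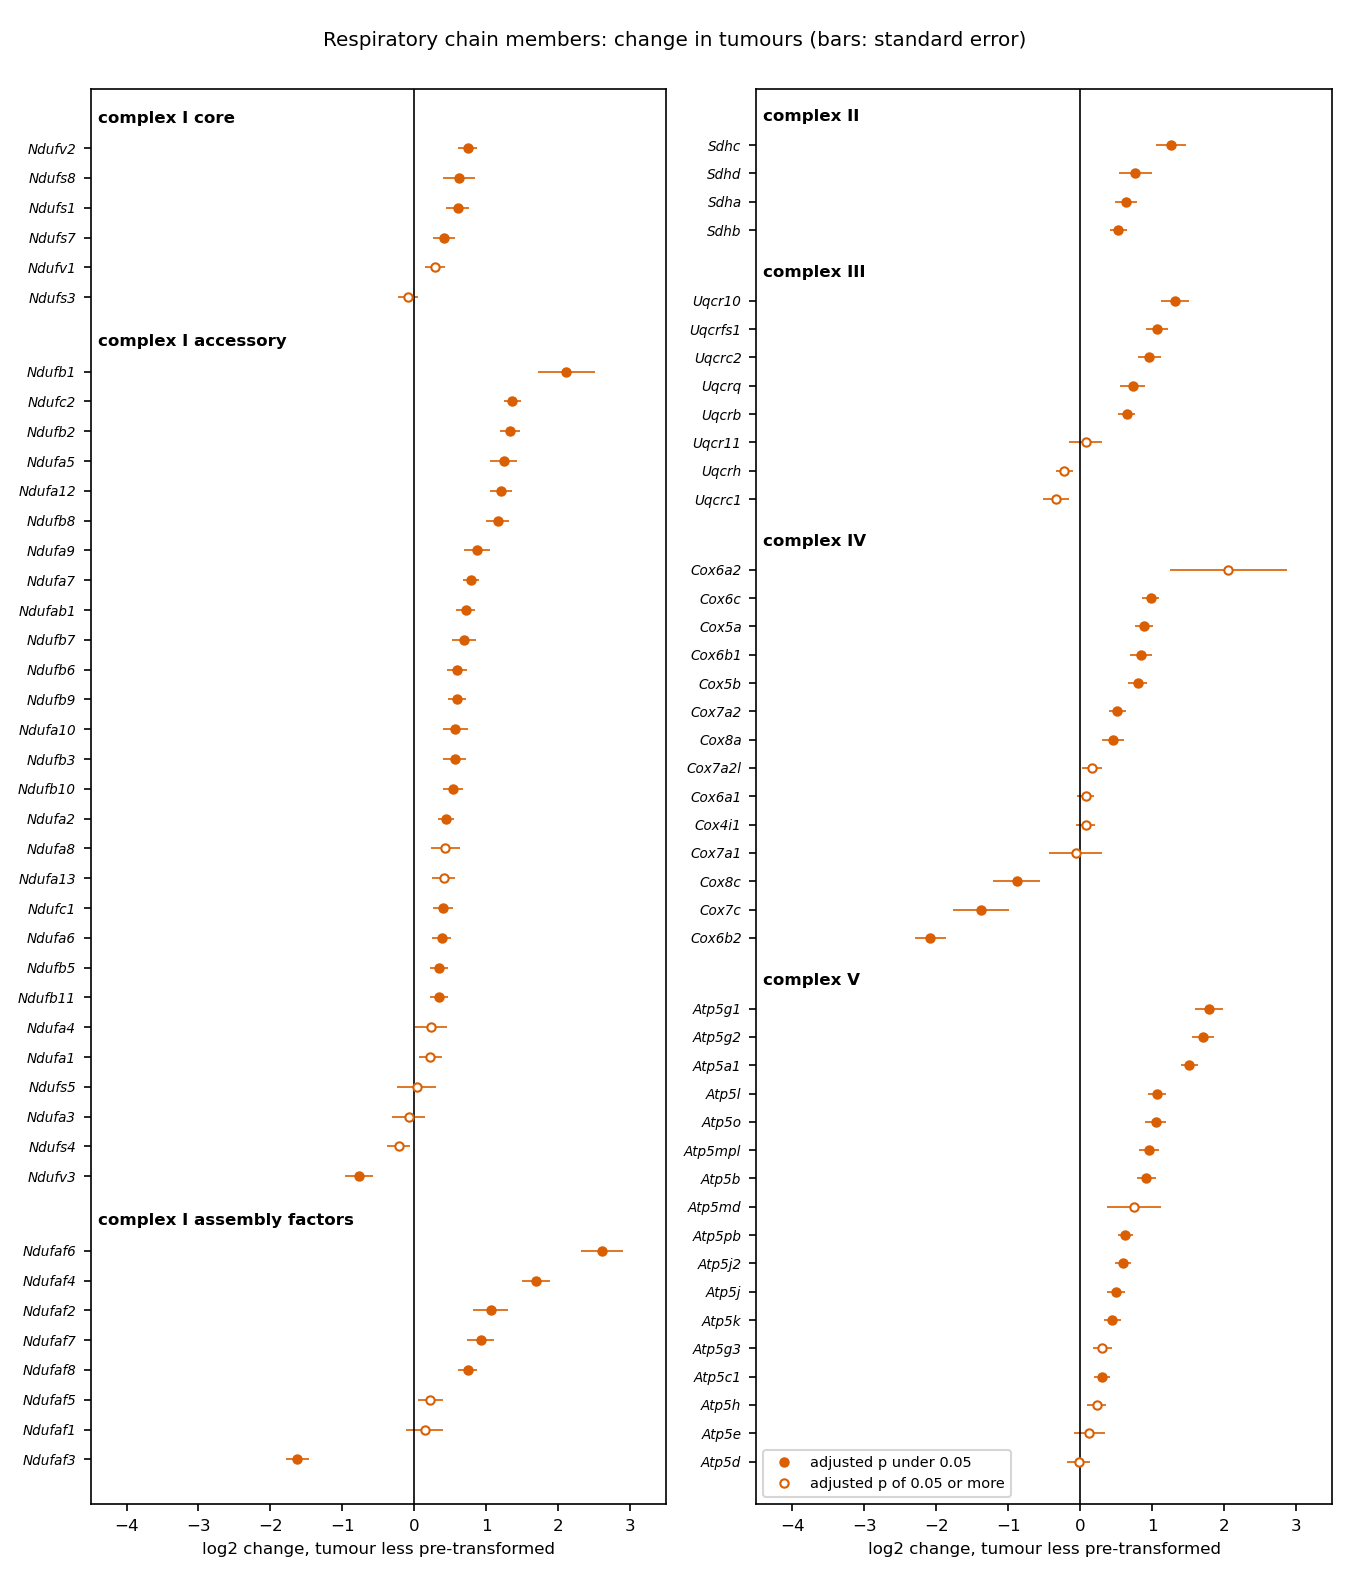
Log2 change in tumours less pre-transformed cells for the 85 tested members, grouped by complex, with standard errors as bars. Filled points passed the test at an adjusted p under 0.05: 56 lie above 0 and 5 below, and the changes run from -2.08 for Cox6b2 to 2.61 for Ndufaf6.

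Array by array, the mean log2 signal over all tested members was 9.65 and 9.87 in controls, 9.47, 9.60 and 9.54 in pre-transformed cells, and 10.19, 10.08, 10.09 and 10.01 in tumours 1 to 4. All 4 tumours were above all sorted arrays. Less the median log2 signal of the genes tested on the same array, the means were 2.65 and 2.87, then 2.45, 2.59 and 2.53, then 3.64, 3.39, 3.24 and 3.24. Lyz2, a myeloid gene, read 3.1 in tumour 2 and 1376.4 to 1741.0 in the other tumours. Whether other cell types bear on these means was not tested. Members varied more among tumours than among pre-transformed mice: the median range of a member was 0.45 on the log2 scale over 4 tumours and 0.22 over 3 pre-transformed arrays, groups of unequal size.

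**Figure D2:**
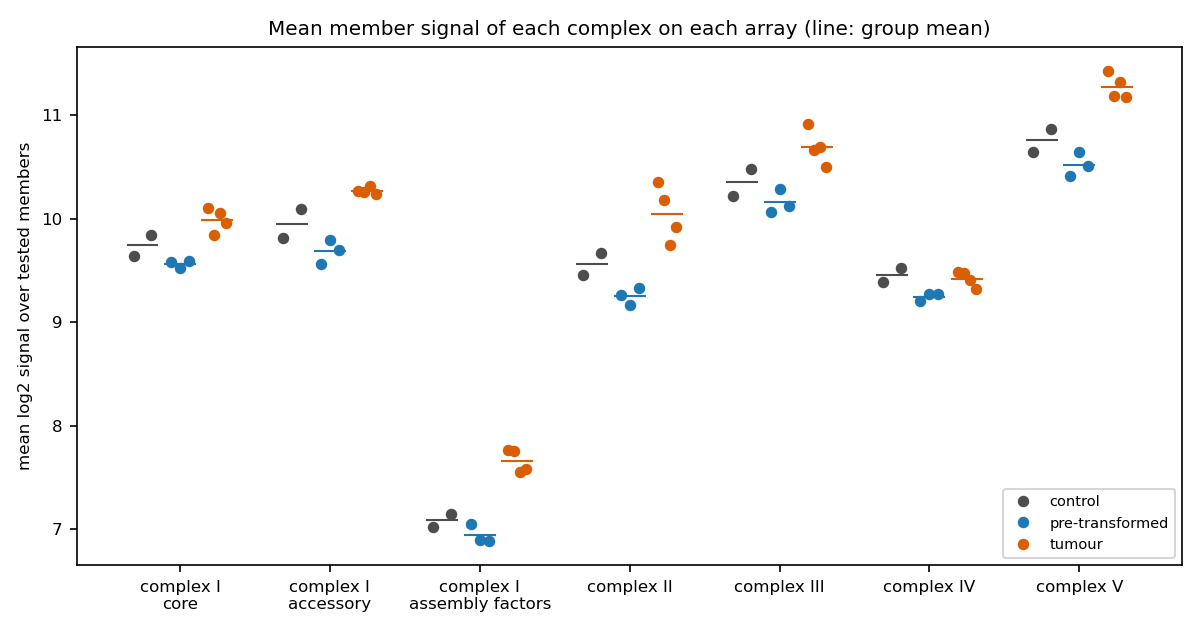
Mean log2 signal over the tested members of each complex on each array, with lines at group means. Tumours lie above both sorted groups for complexes I, II, III and V on average, while for complex IV tumours (9.32 to 9.48) and controls (9.39 and 9.52) overlap. The complex IV mean takes in Cox6a2, Cox6b2, Cox7a1 and Cox8c, isoforms that were dim in tumours, in sorted cells or in both.

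In complex I, 4 of 6 core subunits rose against pre-transformed cells and 0 fell, with a median log2 change of 0.50. The core subunits carry the flavin and iron-sulfur clusters that take electrons from NADH. The largest rise was in Ndufv2 (probe set 1428179_at), an iron-sulfur subunit of the NADH-oxidising tip. It read 1095.1 and 1312.8 in controls, 1014.2, 1012.2 and 1030.2 in pre-transformed cells, and 2016.7, 1559.4, 1666.2 and 1620.6 in tumours. Every tumour was above every sorted array, and the log2 change was 0.74 (SE 0.13, adjusted p = 0.000831) against pre-transformed cells and 0.51 (adjusted p = 0.0164) against controls. The latter call was lost without control 1 (0.38, adjusted p = 0.175). Ndufs1 (probe set 1425143_a_at), the largest core subunit, rose by 0.60 (SE 0.16, adjusted p = 0.00923) and by 0.52 against controls (adjusted p = 0.0376), a call that was lost when any of 8 of the 9 arrays was left out, for example control 1 (0.45, adjusted p = 0.212) or control 2 (0.58, adjusted p = 0.113). Ndufs3 was at -0.09 (adjusted p = 0.589), with tumours overlapping both sorted groups. Of the other core subunits, Ndufs7 and Ndufs8, which carry iron-sulfur clusters on the way to ubiquinone, rose by 0.41 (adjusted p = 0.0421) and 0.62 (adjusted p = 0.0343), and Ndufv1, the flavin-bearing subunit that binds NADH, was at 0.28 (adjusted p = 0.119). Their other probe sets differed. Ndufs7 1451312_at was at -0.21 and not called. For Ndufs8, 1434579_x_at was called higher (0.67), while 1423907_a_at, 1423908_at, 1434213_x_at and the dim 1434212_at were not (0.32, 0.18, 0.24 and -0.31). Ndufv1 1456015_x_at was called higher (0.53) and 1415966_a_at was not (0.20). Against controls 2 of 6 core subunits rose and 0 fell, with a median of 0.32.

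Among 28 accessory subunits of complex I, 20 rose, 1 fell and 7 passed no test against pre-transformed cells, with a median of 0.55. Against controls 11 rose and 1 fell. These subunits surround the core and are needed for its assembly and stability. Ndufb1 (probe set 1454771_at), a small subunit of the membrane arm, had the largest log2 change, 2.11 (SE 0.40, adjusted p = 0.00145), but from dim signal. It read 15.5 and 23.9 in controls, 8.0, 23.3 and 20.4 in pre-transformed cells, and 76.5, 72.7, 71.6 and 51.6 in tumours. With sorted arrays set to their 65th percentile, Ndufb1 was at least 1.54-fold higher than in pre-transformed cells and at least 1.65-fold higher than in controls. Its call against controls was lost without control 1 (1.49, adjusted p = 0.0995).

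Ndufc2 and Ndufb2 were among the 20 that rose. Ndufc2 (probe set 1455036_s_at), chosen after its values were seen, read 1547.5 and 1924.8 in controls, 1238.9, 1403.9 and 1339.4 in pre-transformed cells, and 3513.6, 3597.9, 2962.4 and 3543.8 in tumours. Its tumours lay well above every sorted array, at 2.56-fold the pre-transformed mean (log2 change 1.36 with SE 0.12, adjusted p = 2.76e-05) and 1.97-fold the control mean. Ndufb2, the member nearest to a call before transformation, read 966.1, 840.9, 830.9 and 731.0 in tumours, a log2 change of 1.33 against pre-transformed cells (SE 0.14, adjusted p = 4.79e-05) and 0.80 against controls (adjusted p = 0.00257). It was thus lower than controls before transformation, without a call, and higher than controls in tumours. Further accessory subunits with rises past 1 on the log2 scale were Ndufa5 (1.24, adjusted p = 0.000439), Ndufa12 (1.2, adjusted p = 0.000122) and Ndufb8 (1.16, adjusted p = 0.000226). Ndufa12 read 1006.9 and 1358.2 in controls, 922.8, 1020.5 and 1069.6 in pre-transformed cells, and 2190.7, 2026.9, 2354.0 and 2716.8 in tumours, so that its groups stood clearly apart. Ndufa9, which supports the ubiquinone-binding region, rose by 0.87 (adjusted p = 0.0028), and the mitochondrial acyl carrier protein Ndufab1 by 0.71 (adjusted p = 0.00105). Other members overlapped between groups: Ndufs4 was at -0.22 (adjusted p = 0.26), Ndufa3 at -0.08 (adjusted p = 0.772) and Ndufs5 at 0.03 (adjusted p = 0.944). Ndufs5 varied most of these among tumours, from 442.4 to 1008.7.

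The only accessory subunit that fell was Ndufv3, which sits at the NADH-oxidising tip beside Ndufv2 and is made in a short and a long form. Ndufv3 (probe set 1424628_a_at) read 1498.1 and 1860.6 in controls, 1403.6, 1581.0 and 1526.7 in pre-transformed cells, and 936.6, 706.2, 1247.2 and 728.7 in tumours. Every tumour was below every sorted array. The log2 change was -0.77 against pre-transformed cells (SE 0.20, adjusted p = 0.00789) and -0.92 against controls (adjusted p = 0.00787). The first call was lost when arrays were centred on the genes tested (-0.48, adjusted p = 0.06) and the second without control 2 (-0.77, adjusted p = 0.0861).

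Complex I assembly factors, which help to build the complex but are not part of it, held both the largest rise and a clear fall. Of 8, 5 rose and 1 fell against each sorted group. Ndufaf6 (probe set 1429213_at) read 27.7 and 35.9 in controls, 29.5, 23.6 and 24.5 in pre-transformed cells, and 206.3, 217.8, 115.1 and 118.9 in tumours. It was dim in sorted cells, and tumours were at least 3.6-fold higher than pre-transformed cells (log2 change 2.61 with SE 0.29, adjusted p = 7.14e-05) and at least 3.86-fold higher than controls. Besides Ndufaf6 and Ndufaf4 (probe set 1427997_at), the latter described below, the assembly factors that rose were Ndufaf2 (1.06, adjusted p = 0.00394), Ndufaf7 (0.92, adjusted p = 0.00256) and Ndufaf8 (0.74, adjusted p = 0.000837). Ndufaf1 was at 0.14 (adjusted p = 0.674), with tumours spread from 120.8 to 279.8, and Ndufaf5 at 0.22 (adjusted p = 0.291). Without the 8 assembly factors, 51 of 77 subunits rose and 4 fell against pre-transformed cells, with a median of 0.57.

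Ndufaf3 and Ndufaf4, whose proteins act together early in complex I assembly, moved in opposite directions. Ndufaf3 (probe set 1418185_at) read 475.1 and 508.9 in controls, 515.7, 519.5 and 523.2 in pre-transformed cells, and 148.1, 144.8, 196.6 and 189.9 in tumours. Ndufaf4, named for its values, read 230.8 and 219.4 in controls, 222.3, 137.5 and 195.1 in pre-transformed cells, and 468.4, 603.6, 577.3 and 712.6 in tumours. Neither gene's tumour arrays overlapped any sorted array. Ndufaf3 fell by 1.63 on the log2 scale against pre-transformed cells (SE 0.16, adjusted p = 3.49e-05) and by 1.55 against controls (adjusted p = 0.000189). Ndufaf4 rose by 1.69 (SE 0.20, adjusted p = 0.000107) and by 1.38 (adjusted p = 0.00115). The Ndufaf3 calls were kept under every alternative run.

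**Figure D3:**
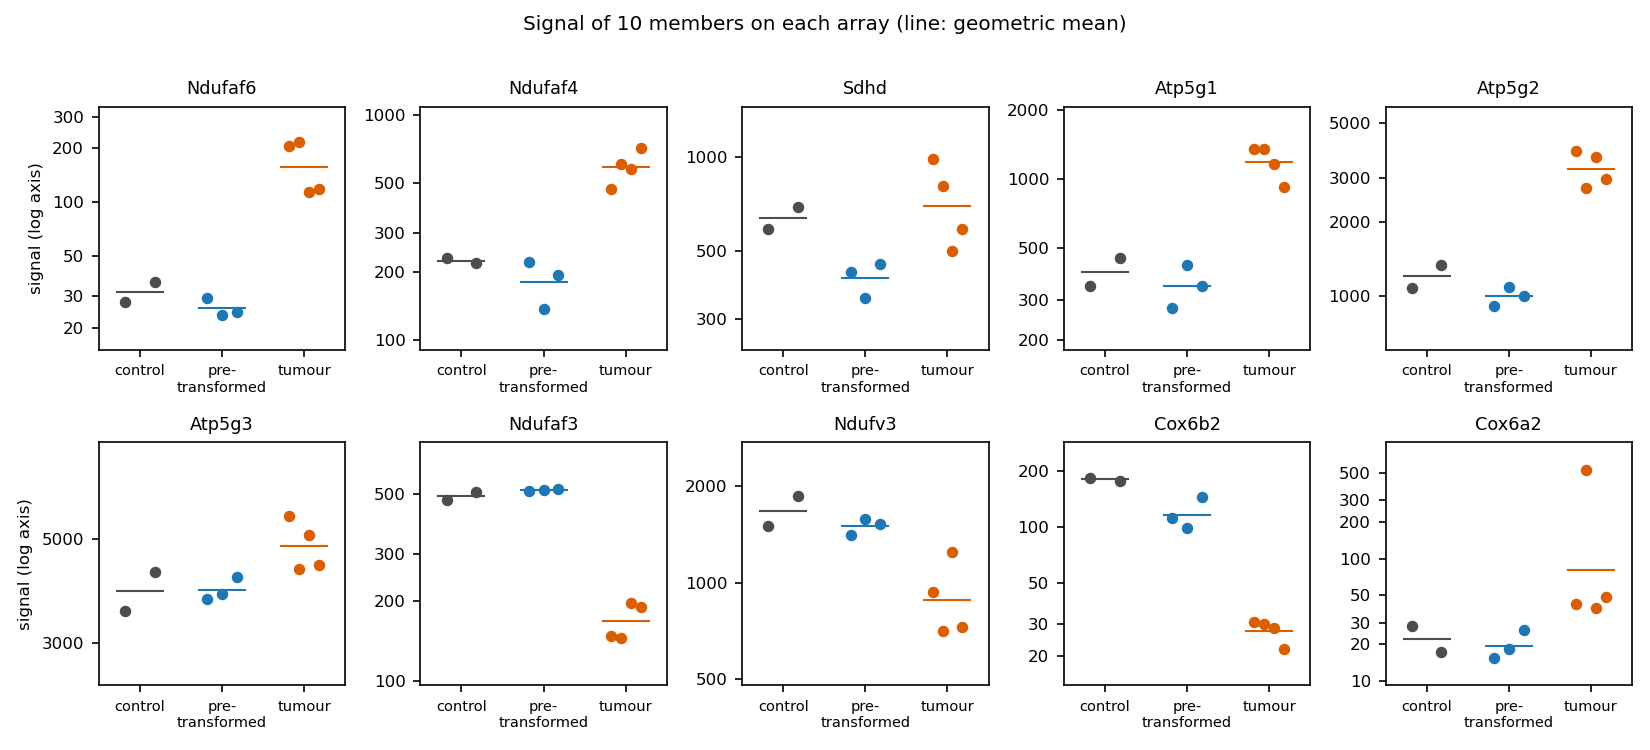
Signal of 10 members on each array, on log axes that differ between panels, with lines at geometric means. Ndufaf6, Ndufaf4, Atp5g1 and Atp5g2 were higher and Ndufaf3, Ndufv3 and Cox6b2 lower on all 4 tumour arrays than on any sorted array, and Cox6a2 (probe set 1417607_at) read 534.3 on tumour 2 alone.

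All 4 subunits of complex II, the succinate dehydrogenase that also serves the TCA cycle, rose against pre-transformed cells, by 0.53 to 1.26 on the log2 scale, or 3 of 4 with quantile normalization and 1 of 4 with median centring. Sdhc (probe set 1448630_a_at), a membrane anchor, read 327.1 and 374.1 in controls, 274.3, 230.8 and 275.2 in pre-transformed cells, and 752.6, 826.7, 495.9 and 480.1 in tumours. Its rise was the largest of the complex, 1.26 against pre-transformed cells (SE 0.21, adjusted p = 0.000796) and 0.83 against controls (adjusted p = 0.019). The latter call was lost without control 1 (adjusted p = 0.14) or control 2 (adjusted p = 0.0681). Tumours 1 and 2 read higher than tumours 3 and 4 for both membrane anchors. Sdhd read 986.5, 809.8, 497.0 and 588.9 in tumours, and so was 0.77 above pre-transformed cells (SE 0.23, adjusted p = 0.0166) while overlapping the controls (0.13, adjusted p = 0.712). Without pre-transformed 2 the first Sdhd call was lost (0.66, adjusted p = 0.069). A dimmer probe set of Sdhd, 1437489_x_at, read 47.4 and 39.8 in controls, 36.6, 37.2 and 23.8 in pre-transformed cells, and 181.5, 164.3, 141.7 and 136.3 in tumours. It did not overlap the controls (1.83, adjusted p = 0.000906 over all probe sets kept), and with the mean of probe sets Sdhd was called higher than in controls (0.98, adjusted p = 0.00484).

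Sdha (probe set 1426688_at), the flavoprotein of complex II, read 894.7 and 981.7 in controls, 878.2, 934.4 and 998.7 in pre-transformed cells, and 1819.0, 1418.6, 1212.6 and 1435.6 in tumours. It rose by 0.64 against pre-transformed cells (SE 0.15, adjusted p = 0.00448) and by 0.64 against controls (adjusted p = 0.0115), the latter being lost without control 1 (0.57, adjusted p = 0.104). Another probe set of Sdha, 1426689_s_at, read 528.8, 521.0 and 571.3 in pre-transformed cells and 619.2, 526.3, 542.9 and 435.6 in tumours, with a change of -0.04 (adjusted p = 0.857 over all probe sets kept). Another one, the dimmer 1433293_at, was at -0.79 (adjusted p = 0.16 over all probe sets kept), so the rise of Sdha rested on its brightest probe set. Sdhb (probe set 1418005_at), the iron-sulfur subunit, read 1384.3, 1416.4 and 1378.2 in pre-transformed cells and 2140.1, 1920.0, 1805.2 and 2192.9 in tumours. Its groups did not overlap, and the rise was 0.53 (SE 0.12, adjusted p = 0.00483), which was lost under quantile normalization (0.18, adjusted p = 0.182).

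In complex III, which hands electrons from ubiquinol to cytochrome c, 5 of 8 members rose against pre-transformed cells and 0 fell, with a median of 0.69. Quantile normalization gave 4 higher and 2 lower, the latter Uqcrc1 and Uqcrh. Uqcr10 (probe set 1424364_a_at), a small subunit, read 574.0 and 780.7 in controls, 474.1, 651.8 and 431.2 in pre-transformed cells, and 1593.5, 1211.0, 1135.9 and 1213.3 in tumours. All tumours lay above all sorted arrays, 2.5-fold above the pre-transformed mean (log2 change 1.32 with SE 0.19, adjusted p = 0.000301) and 1.91-fold above controls (adjusted p = 0.0063, and 0.0925 without control 1). The Rieske iron-sulfur subunit Uqcrfs1 rose by 1.07 (adjusted p = 0.000275) and the core subunit Uqcrc2 by 0.96 (adjusted p = 0.000754), both named after their values were seen. Their partner Uqcrc1, the other core subunit, was at -0.34 (adjusted p = 0.127), with tumours at 837.8 to 1433.1 and pre-transformed cells at 1256.1 to 1545.5. Of the small subunits, Uqcrb rose by 0.65 (adjusted p = 0.00134) and Uqcrq by 0.73 (adjusted p = 0.00485), while Uqcr11 was at 0.08 (adjusted p = 0.793), with tumours at 547.6 to 1090.7. Against controls 4 of 8 members rose and 1 fell, with a median of 0.54.

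Uqcrh (probe set 1453229_s_at), the hinge subunit that bridges cytochrome c1 and cytochrome c, was the 1 member of complex III that fell in either comparison. Uqcrh read 2851.1 and 3650.1 in controls, 2565.9, 2940.8 and 2760.6 in pre-transformed cells, and 2616.6, 2278.1, 2198.2 and 2395.2 in tumours. It was lower than in controls (-0.45, SE 0.14, adjusted p = 0.024) and at -0.22 against pre-transformed cells (adjusted p = 0.155), where the groups overlapped. The call against controls was lost under 6 of the alternatives run, among them without control 2 (-0.27, adjusted p = 0.258), and a second probe set of Uqcrh was at -0.37 (adjusted p = 0.102 over all probe sets kept). Cyc1, the cytochrome c1 of the same complex whose symbol lies outside the pattern, rose 2.52-fold against pre-transformed cells (log2 change 1.33 with SE 0.12, adjusted p = 2.67e-05). Cycs, the mobile cytochrome c that carries electrons on to complex IV, read 877.4, 1433.9 and 845.0 in pre-transformed cells and 3798.5, 4358.6, 3760.3 and 4380.6 in tumours, a 3.98-fold rise (log2 change 1.99 with SE 0.18, adjusted p = 2.78e-05).

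Complex IV, the cytochrome c oxidase, had the smallest median of the complexes, 0.31 against pre-transformed cells, with 6 of 14 members higher and 3 lower. With quantile normalization that median was -0.07, against -0.09 over all genes tested, with 5 members higher and 4 lower. The 14 include Cox6a2, Cox6b2, Cox7a1 and Cox8c, tissue-restricted isoforms that were dim in tumours, in sorted cells or in both. As deposited these were at 2.06, -2.08, -0.06 and -0.88, and a median of complex IV without them was not taken. The complexes were not tested against each other. Its ubiquitous subunits, apart from Cox7c, rose or were near 0 as deposited. Cox6c (probe set 1415970_at) read 2346.1 and 2786.9 in controls, 2058.5, 2487.5 and 2247.1 in pre-transformed cells, and 5059.3, 4025.2, 4169.6 and 4630.1 in tumours, a 1.97-fold rise against pre-transformed cells (log2 change 0.98 with SE 0.12, adjusted p = 0.000152) and a 1.74-fold rise against controls (adjusted p = 0.00161). Cox5a, Cox5b, Cox6b1, Cox7a2 and Cox8a also rose, by 0.46 to 0.89. Cox4i1 and Cox6a1, in contrast, were both at 0.08 (adjusted p = 0.62 and 0.612), or called lower with quantile normalization, with tumour and pre-transformed arrays that overlapped for both. Cox5a (probe set 1415933_a_at) read 2286.4 and 2451.8 in controls, 1774.5, 2215.9 and 1763.1 in pre-transformed cells, and 3909.9, 3502.2, 3195.8 and 3527.0 in tumours. On this probe set tumours and sorted cells did not overlap. Of its other probe sets, 1439267_x_at rose by 1.34 (adjusted p = 8.17e-05 over all probe sets kept). The also bright 1448153_at overlapped, at 1935.0 to 2109.5 in pre-transformed cells and 2008.4 to 2404.9 in tumours. Its change was 0.16 (adjusted p = 0.267 over all probe sets kept), and -0.09 against controls. Cox7a2l, which links complex III and complex IV into supercomplexes, was at 0.17 (adjusted p = 0.314). Against controls 4 of 14 members of complex IV rose and 2 fell, with a median of 0.19.

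All 3 falls in complex IV against pre-transformed cells came from probe sets that read at most 474.4 on any array. Cox6b2 (probe set 1435275_at), the isoform of Cox6b1 best known from testis, read 183.8 and 177.8 in controls, 111.1, 98.0 and 144.2 in pre-transformed cells, and 30.8, 29.8, 28.4 and 21.8 in tumours. Groups ran in steps without overlap, from controls through pre-transformed cells to tumours, where Cox6b2 was dim. It was at least 3.2-fold lower than in pre-transformed cells (log2 change -2.08 with SE 0.22, adjusted p = 5.72e-05) and at least 4.98-fold lower than in controls (log2 change -2.72 with SE 0.25, adjusted p = 7.03e-05). The step from controls to pre-transformed cells was -0.64 and not called (adjusted p = 0.12). While Cox6b2 fell, its paralog Cox6b1 (probe set 1436757_a_at) rose from 2091.6, 2841.2 and 2380.1 in pre-transformed cells to 4827.2, 3709.2, 4863.5 and 4198.5 in tumours (log2 change 0.85 with SE 0.15, adjusted p = 0.000846).

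Cox7c (probe set 1459885_s_at), a ubiquitous small subunit, read 474.4 and 326.7 in controls, 474.2, 310.8 and 260.1 in pre-transformed cells, and 172.6, 57.9, 167.3 and 166.7 in tumours. It fell by 1.38 on the log2 scale against pre-transformed cells (SE 0.39, adjusted p = 0.0129) and by 1.61 against controls (adjusted p = 0.0146). The first call was lost without pre-transformed 1 (adjusted p = 0.0615) and without suffixed probe sets (-0.94, adjusted p = 0.0562), and the second without control 1 (adjusted p = 0.13). Whether this probe set reads the main Cox7c transcript was not tested. Cox8c (probe set 1455167_at), an isoform known from testis, fell by 0.88 against pre-transformed cells (adjusted p = 0.0444) at a dim tumour signal of 20.2 to 42.4, and 11 alternatives, 6 of them with 1 array left out, ended that call, with adjusted p-values of 0.0508 to 0.187.

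Other isoforms restricted to certain tissues were dim in thymocytes. Cox4i2, Cox7b2, Cox8b and Ndufa4l2 read 17.3 or less on every array. Cox7a1, the heart and muscle isoform of Cox7a2, read 8.3 to 22.7 and was not called. Cox6a2, the heart and muscle isoform of Cox6a1, read 28.4 and 17.4 in controls and 15.5, 18.1 and 26.2 in pre-transformed cells, against 42.2, 534.3, 39.4 and 48.4 in tumours. Tumour 2 stood apart, and with it the log2 change of 2.06 had a standard error of 0.81 and passed no test (adjusted p = 0.0526). The other tumours lay close to the 65th percentile of the sorted arrays, 39.4 to 44.6, under which signal is called dim here. The fitted change passed the test under 8 of 21 alternatives, among them without tumour 2 (1.15, adjusted p = 0.0116). Without tumour 2 it is a difference between signals at or near the dim range. A second probe set of Cox6a2, 1457633_x_at, was dim in all groups and read 96.3 in tumour 2 against 9.0 to 18.8 in the other tumours. That probe set was called higher than in pre-transformed cells (3.69, adjusted p = 0.013 over all probe sets kept). The muscle isoforms Cox8b and Cox7a1 read 2.4 and 14.0 in tumour 2, within the range of the other tumours.

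No member of complex V fell as deposited, while Atp5h was called lower against pre-transformed cells with quantile normalization and Atp5e against controls with median centring. Against pre-transformed cells 12 of 17 rose, with a median of 0.63. Against controls 8 rose and 0 fell. Atp5a1 (probe set 1423111_at), the α subunit of the catalytic head, read 1569.6 and 1668.4 in controls, 1283.3, 1176.6 and 1431.8 in pre-transformed cells, and 4112.7, 3957.9, 3462.7 and 3370.9 in tumours. Its partner Atp5b (probe set 1416829_at), the catalytic β subunit, read 2185.4 and 2145.4, then 1751.8, 2465.8 and 2044.2, then 4250.8, 3865.9, 3919.8 and 3639.2. Both are named for their values, and neither gene's tumours overlapped a sorted array. Atp5a1 rose 2.87-fold against pre-transformed cells (log2 change 1.52 with SE 0.12, adjusted p = 1.49e-05) and Atp5b 1.89-fold (log2 change 0.92 with SE 0.13, adjusted p = 0.000251). The size of the Atp5a1 rise depended on the probe set. The also bright 1449710_s_at rose by 0.54 (adjusted p = 0.00348 over all probe sets kept), and the much dimmer 1420037_at was at -0.23 (adjusted p = 0.542). Subunits of the rotor stalk below the head moved less: Atp5c1 rose by 0.30 (adjusted p = 0.0405) and Atp5d was at -0.02 (adjusted p = 0.939).

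The peripheral stalk, which holds the head of complex V still against the rotor, also rose in part. Atp5o read 1308.3 and 1671.8 in controls, 1088.1, 1179.1 and 1170.5 in pre-transformed cells, and 2595.3, 2290.7, 1888.8 and 2811.0 in tumours, a rise of 1.05 against pre-transformed cells (SE 0.15, adjusted p = 0.000349). Atp5pb rose by 0.63 (adjusted p = 0.00052), with tumours within 3231.6 to 3400.7, and Atp5j by 0.50 (adjusted p = 0.0049). Atp5h was at 0.23 (adjusted p = 0.152) and overlapped pre-transformed cells. Small membrane subunits, several of which help ATP synthases pair into dimers, rose as well: Atp5l by 1.07 (adjusted p = 0.000127), Atp5mpl by 0.96 (adjusted p = 0.000277), Atp5j2 by 0.60 (adjusted p = 0.00114) and Atp5k by 0.45 (adjusted p = 0.011). Atp5e, the ε subunit of the rotor stalk, was at 0.13 (adjusted p = 0.617), and Atp5md was not called (0.75, adjusted p = 0.11), with tumour 4 at 495.4 and the other tumours at 1390.6 to 1661.5.

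The 3 genes Atp5g1, Atp5g2 and Atp5g3 encode the same mature c subunit of the proton-driven rotor from different precursors. Atp5g1 and Atp5g2 passed the test in tumours and Atp5g3 did not, and the differences between the genes were not tested. Atp5g1 (probe set 1416020_a_at) read 342.6 and 452.5 in controls, 275.4, 425.2 and 344.8 in pre-transformed cells, and 1355.7, 1354.1, 1158.8 and 919.5 in tumours. Atp5g2 (probe set 1415980_at) read 1079.2 and 1337.8, then 914.1, 1091.9 and 1006.3, then 3864.5, 2741.5, 3657.4 and 2977.4. Atp5g3 (probe set 1454661_at) read 3509.3 and 4264.9, then 3724.6, 3828.7 and 4147.5, then 5597.7, 4311.3, 5091.2 and 4406.8. Tumours were above every sorted array for each of the 3, by wide margins for Atp5g1 and Atp5g2 and narrowly for Atp5g3. Against pre-transformed cells Atp5g1 rose 3.45-fold (log2 change 1.79 with SE 0.20, adjusted p = 7.72e-05) and Atp5g2 3.27-fold (log2 change 1.71 with SE 0.15, adjusted p = 2.55e-05), while Atp5g3 was 1.24-fold higher (log2 change 0.31 with SE 0.13) and not called (adjusted p = 0.0597, and 0.0377 without tumour 2). With quantile normalization Atp5g3 was at -0.24. Calls of Atp5g1 and Atp5g2 in both tumour comparisons were kept under every alternative that could be run.

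Where several probe sets read 1 member, they did not always move alike. Of 50 members with more than 1 probe set kept, 27 had the same call on all of them for tumours against pre-transformed cells, 19 had a call on some only, and 4 (Atp5c1, Cox5b, Ndufb11 and Ndufb8) had calls in opposite directions. For Ndufb11, an accessory subunit of complex I, all 3 probe sets kept were bright. The one used, 1416056_a_at, rose from 1692.7 to 1907.4 in pre-transformed cells to 2046.8 to 2522.4 in tumours (0.34). Another, 1455911_x_at, also rose (0.41, adjusted p = 0.0177 over all probe sets kept). In contrast, 1416057_at fell from 1723.6 to 2088.3 to 1241.8 to 1412.1 (-0.51, adjusted p = 0.0041 over all probe sets kept). For Ndufb8, 1448198_a_at rose by 1.16 and the much dimmer 1458404_at fell by 1.46 (adjusted p = 0.00093 over all probe sets kept). Which transcripts each probe set reads was not tested. With the mean of a gene's probe sets in place of the brightest, 43 members rose and 6 fell, and Sdha went from a rise to -0.06.

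**Figure D4:**
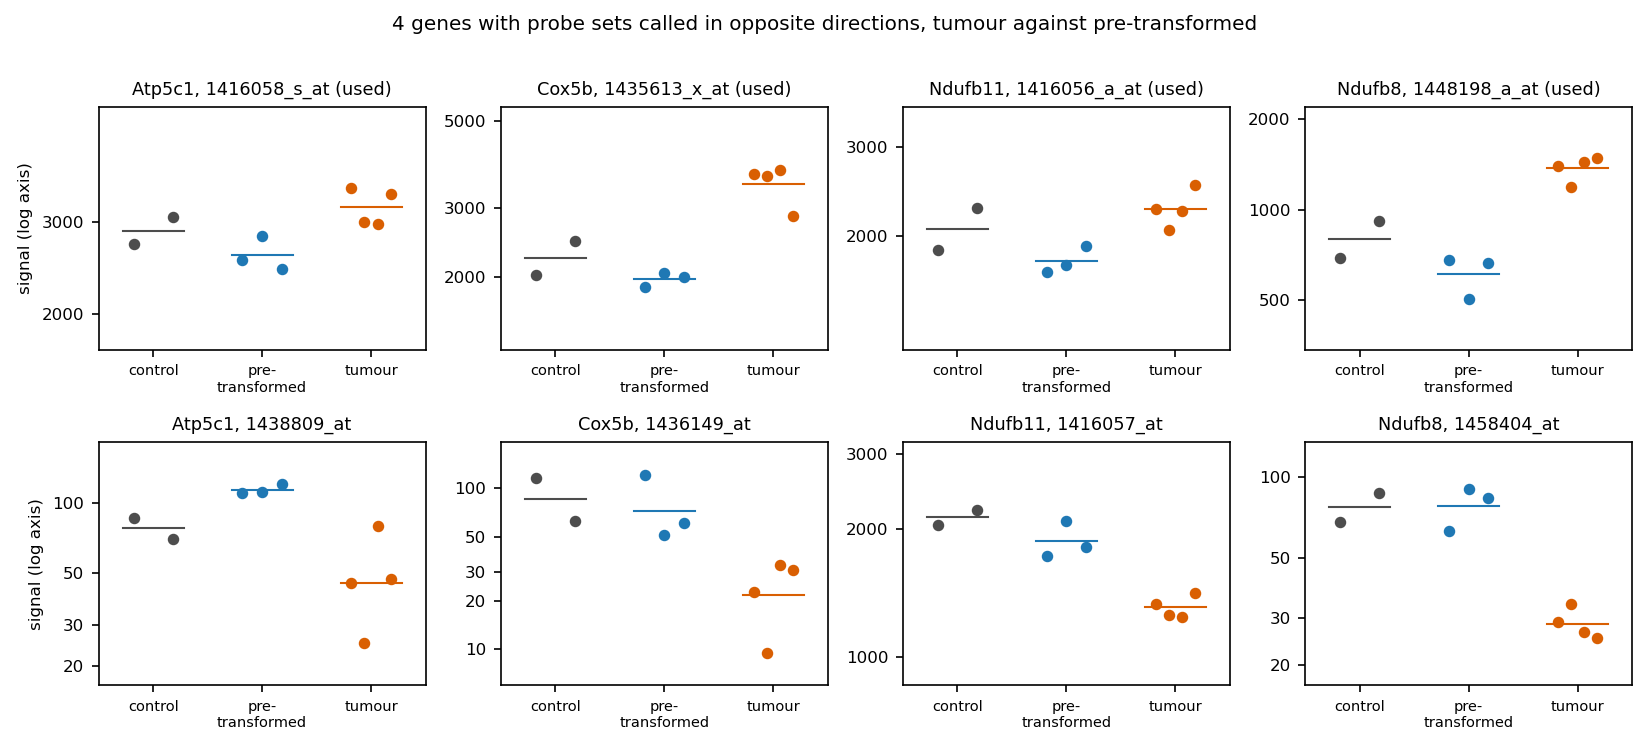
Signal on each array of the brightest probe set (upper panels) and of a probe set called lower in tumours (lower panels) for Atp5c1, Cox5b, Ndufb11 and Ndufb8, on log axes that differ between panels, with lines at geometric means. For Ndufb11 both were bright, at 1692.7 to 2522.4 and 1241.8 to 2214.8, whereas the lower probe sets of the other 3 genes read at most 121.6.

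Probe sets that name several genes were not used, and they hold some missing members. The 2 probe sets shared by Ndufb4 and its near copies Ndufb4b and Ndufb4c read 462.2 to 670.7 in sorted cells and 888.1 to 1542.9 in tumours, without overlap. The probe set shared by Ndufs6 and Ndufs6b read 643.2 to 938.7 in sorted cells and 852.9 to 954.0 in tumours. The brighter probe set shared by Ndufa11 and Ndufa11b read 492.5 to 621.4 in sorted cells and 641.6 to 1243.2 in tumours. The probe set shared by Ndufs5 and Ndufs5-ps went the other way, with 776.1 to 995.0 in sorted cells and 491.1 to 752.5 in tumours. No single gene can be named from these.

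Promoters of members were searched for letters bound by factors known to act on respiratory genes. A promoter was given by RefSeq (GRCm38.p6) for 74 members, as 250 bases before and 50 after the start of transcription. The motifs were NRF1 (GCGCANGCG), the ETS site of GABPA (CCGGAAG), YY1 (AAGATGGC) and the E-box of MYC and its relatives (CACGTG), on both strands, and no matches of different motifs overlapped in a member's window. NRF1 letters were in 20 of 74 members (27%), against 7.03% of 27025 genes with a window and 15.4% of 9453 genes tested. ETS letters were in 25.7% of members, 9.93% of genes and 20.6% of genes tested, and YY1 letters in 13.5%, 3.19% and 5.45%. The E-box was in 8.11%, 8.09% and 11.8%. At least 1 of the 4 was found in 44 members and none in 30. NRF1 letters were in 11 of 45 members called higher against pre-transformed cells and in 8 of 26 other tested members. ETS letters were in 11 and 8, YY1 letters in 8 and 2, and the E-box in 4 and 2.

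The 250 bases before the start are shown for 4 members that rose, chosen because they carry different matches, and for Ndufaf3 and Ndufv3, which fell and carry none there. Capitals mark the matches, and each is written 5′ to 3′ in the gene's direction. Atp5l, a small subunit of the ATP synthase membrane part that rose 2.1-fold, has NRF1, ETS and E-box letters, Atp5g1 has an E-box, Ndufaf4 has 2 NRF1 matches on opposite strands that overlap each other, and Sdhd has NRF1 and ETS letters.
Atp5l, chr9:44920743-44920992, minus strand: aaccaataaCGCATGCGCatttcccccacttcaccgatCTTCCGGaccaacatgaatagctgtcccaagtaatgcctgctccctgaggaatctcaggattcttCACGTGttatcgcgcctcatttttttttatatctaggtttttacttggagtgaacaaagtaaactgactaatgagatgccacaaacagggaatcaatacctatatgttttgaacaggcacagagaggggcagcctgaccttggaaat
Atp5g1, chr11:96075632-96075881, minus strand: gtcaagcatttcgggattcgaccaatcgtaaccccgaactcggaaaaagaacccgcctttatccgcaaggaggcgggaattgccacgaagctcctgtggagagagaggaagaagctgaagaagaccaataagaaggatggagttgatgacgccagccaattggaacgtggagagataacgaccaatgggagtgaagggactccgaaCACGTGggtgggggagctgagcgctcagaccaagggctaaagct
Ndufaf4, chr4:24897833-24898082, plus strand: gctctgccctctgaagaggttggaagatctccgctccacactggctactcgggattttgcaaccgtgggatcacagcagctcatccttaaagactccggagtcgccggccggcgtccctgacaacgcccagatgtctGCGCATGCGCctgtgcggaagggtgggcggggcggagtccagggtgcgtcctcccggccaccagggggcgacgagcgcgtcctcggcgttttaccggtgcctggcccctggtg
Sdhd, chr9:50603850-50604099, minus strand: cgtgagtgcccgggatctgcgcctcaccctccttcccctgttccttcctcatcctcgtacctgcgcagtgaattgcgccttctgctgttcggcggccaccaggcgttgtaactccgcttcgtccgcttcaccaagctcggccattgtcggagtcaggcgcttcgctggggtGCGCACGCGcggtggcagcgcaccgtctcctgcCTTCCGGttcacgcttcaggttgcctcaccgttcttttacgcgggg
Ndufaf3, chr9:108567437-108567686, minus strand: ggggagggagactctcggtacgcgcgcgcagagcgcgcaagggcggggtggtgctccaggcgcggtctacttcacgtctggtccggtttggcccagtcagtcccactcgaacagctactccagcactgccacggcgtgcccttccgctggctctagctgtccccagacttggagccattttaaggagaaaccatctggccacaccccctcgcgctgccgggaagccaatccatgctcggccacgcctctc
Ndufv3, chr17:31519865-31520114, plus strand: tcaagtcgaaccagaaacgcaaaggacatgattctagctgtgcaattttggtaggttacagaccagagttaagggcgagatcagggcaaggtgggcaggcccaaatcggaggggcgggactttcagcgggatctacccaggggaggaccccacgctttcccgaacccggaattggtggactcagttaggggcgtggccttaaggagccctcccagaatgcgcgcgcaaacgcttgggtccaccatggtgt
A match describes the letters and not a bound site, and a window without one says nothing about the factors.

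Genes that supply or regulate the chain were read from lists, beside the 23.9% of all genes tested that were called higher and the 31% called lower in tumours against pre-transformed cells. Of 17 mitochondrial carriers, porins and import proteins, 12 rose and 0 fell, with a median of 0.99. Timm23, the channel of the inner-membrane import machinery, rose 2.91-fold (adjusted p = 1.63e-05), and its small partner Timm8a1 rose 5.77-fold (adjusted p = 8.6e-06). Of 17 genes of the TCA cycle and pyruvate dehydrogenase, 9 rose and 3 fell, with a median of 0.61: Suclg2 rose 7.1-fold and Idh3a 3.63-fold, while Idh2, named after its values were seen, was among the falls at -2.38. Of 42 assembly factors outside the symbol pattern, 14 rose and 7 fell, with a median of 0.31, and Lrpprc, which stabilises mitochondrial mRNA, rose 2.66-fold. Of 12 ubiquinone synthesis genes 3 rose and 3 fell. These lists were described and not tested as sets.

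Genes for mitochondrial DNA were mixed, with 5 of 14 higher, 4 lower and a median of 0.04. Polg, the mitochondrial DNA polymerase, fell from 821.9, 947.4 and 848.3 in pre-transformed cells to 188.6, 231.8, 391.4 and 306.9 in tumours (log2 change -1.69, adjusted p = 0.000206). Top1mt, the mitochondrial topoisomerase, was at least 6.52-fold higher, from dim signal. Among 8 regulators of respiratory genes, 2 rose and 1 fell. Myc read 88.0 and 59.4 in controls, 116.2, 53.3 and 67.8 in pre-transformed cells, and 1205.7, 1486.1, 1722.5 and 1192.2 in tumours, an 18.5-fold rise (log2 change 4.21 with SE 0.27, adjusted p = 7.56e-06). Pprc1, a coactivator of the PGC-1 family, rose 3.2-fold (adjusted p = 0.00283). Nrf1 and Gabpa, whose proteins bind the NRF1 and ETS letters above, were at -0.44 and -0.33 (adjusted p = 0.276 and 0.163), and Esrra fell by 1.06 (adjusted p = 0.0086).

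Against pre-transformed cells, where 23.9% of all genes tested were called higher, 3 of 10 myeloid markers, 1 of 4 B cell markers and the 1 erythroid marker tested were called higher, and 0 of 5 stromal and endothelial ones. Summed signal of the B cell list was 260 to 285 in controls, 233 to 253 in pre-transformed cells and 15.7 to 641 in tumours, that of the erythroid list 2 to 6.7 in sorted cells and 21.4 to 81 in tumours, and that of the stromal list 153 to 219 and 180 to 419. In tumour 2 the myeloid markers Lyz2, S100a8 and Cd14 read 3.1, 2.0 and 0.6 and the B cell marker Ms4a1 read 5.0. Summed over all 10 myeloid markers, however, tumour 2 read 149, above the 114 to 132 of controls and within the 121 to 221 of pre-transformed cells. Mean log2 signal over all tested members was 10.08 in tumour 2 and 10.01 to 10.19 in the other tumours. Without tumour 2 the members called against pre-transformed cells were 59 higher and 4 lower. That fit keeps the tumours with more myeloid signal, and whether other cell types contribute to the member changes was not tested.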

How the data were processed

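RNA of 9 mice was read on 1 Affymetrix array each. The authors deposited linear signal intensities, 1 for each probe set, made with MAS5 per the submitters' processing notes (version not given in the sources used here); other upstream steps are not given in the sources used here. Here each signal was log2-transformed after raising any 0 to 0.1, with no added normalization. After 64 control probe sets were left out, a probe set was kept if 2 or more arrays read it no lower than that array's median. Of 45101 probe sets, 34945 named 1 gene, 932 several and 9160 none in the platform annotation used. The kept probe set with the highest mean stood for a gene, which gave 11644 genes. A probe set suffix of a, s or x, which marks shared sequence, was carried by 44 of the 85 members used.

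The test was limma's (version 3.58.1, R 4.3.3), using lmFit and eBayes with a trend, with p-values adjusted by Benjamini-Hochberg over all genes tested, with a call at an adjusted p under 0.05. The comparison of the sorted groups used their 5 arrays, and the tumour comparisons used all 9. The fit was tested on simulated data. "At least" folds set the dim group to the 65th percentile of its arrays. Group means are geometric, and p-values weigh a difference between groups against the spread between mice within groups. In the tumour comparisons that difference also carries age, sorting and labelling. Replicate numbers name different mice and pair nothing.

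The members and gene lists were chosen with earlier results of these data known. Named genes were, per complex and comparison, the called members with the largest rise and fall, all of complex II, all members lower in tumours, tissue-restricted isoforms, Cyc1, Cycs, and 2 genes of each other list by smallest p; others were named after their values were seen. Promoter windows came from RefSeq (GRCm38.p6), and a gene with several windows counted once. Alternatives changed the filter, scaling, offset (1.2 added), probe set choice, variance model, array weights, arrays in the fit and replicate block, and left out each array. Figures were drawn with matplotlib 3.10.9.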

Additional observations from a re-analysis of the deposited data

Results flagged for a closer look

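For each of the 85 tested members, the tumour array farthest from the other 3 was compared with the range of the group by Dixon's criterion at the 95% level. A single array stood apart for 7 members, and chance gives about 1 in 20.

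Cox6a2 read 534.3 in tumour 2 against 39.4 to 48.4 in the other tumours. Cox7c read 57.9 in tumour 2 against 166.7 to 172.6. Atp5k, a small membrane subunit of complex V, read 2215.1 in tumour 2 against 2768.3 to 2896.5. Atp5md, another small subunit of complex V, read 495.4 in tumour 4 against 1390.6 to 1661.5, and was not called in tumours against pre-transformed cells (log2 change 0.75, adjusted p = 0.11). Cox5b read 2861.5 in tumour 4 against 3624.5 to 3754.4. Ndufb1 read 51.6 in tumour 4 against 71.6 to 76.5. Ndufc2 read 2962.4 in tumour 3 against 3513.6 to 3597.9. Tumours 2 and 4 each gave 3 of the 7 and tumour 3 gave 1, and the cause was not tested.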

How the results depend on the processing

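Before transformation, 2 members were called with median centring, 1 with the mean of probe sets, 2 with array weights and 0 to 3 with 1 array left out, against 0 as reported. The median log2 change was -0.36 with median centring and -0.35 to -0.10 with 1 array left out. Over all genes tested it was -0.11 with median centring, against 0.02 as reported. For tumours against pre-transformed cells, 35 members were called with median centring, against 61. The median, 0.59 as reported, was 0.34 with quantile normalization, 0.33 with median centring, 0.88 with centring on genes tested (added after seeing the data), 0.44 with the mean of probe sets and 0.45 without suffixed probe sets. Medians over all genes tested were -0.12 as reported and, in the same order, -0.09, -0.38, 0.17, -0.08 and -0.17. For tumours against controls, 15 members were called with median centring, 24 without suffixed probe sets (66 members tested) and 15 (without control 1) to 44 with 1 array left out, against 41. The median, 0.35 as reported, was 0.12 with quantile normalization, -0.04 with median centring, 0.63 with centring on genes tested and 0.22 to 0.46 with 1 array left out. For all genes tested the median was -0.08 as reported, -0.08 with quantile normalization, -0.46 with median centring and 0.21 with centring on genes tested. Sdha turned to -0.06 against pre-transformed cells and -0.01 against controls with the mean of probe sets, as its other probe sets did not rise. With the replicate block, 0 members were called before transformation, 56 for tumours against pre-transformed cells and 38 for tumours against controls. Correlations of same-numbered arrays were -0.02 to 0.08. Of 32 calls of named members, 15 were kept under every alternative run and 17 were lost or turned under at least 1. Signal near background limits Ndufb1, Ndufaf6, Cox6b2, Cox8c and Cox6a2. The causes of other shifts were not tested.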
